A study of Mus musculus with 8 samples.

Results

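The 10 genes described here were 6 S100 genes (S100a4, S100a6, S100a8, S100a9, S100a10 and S100a11), 3 annexin genes (Anxa1, Anxa2 and Anxa3) and Ahnak, out of 15576 genes in the count table of murine leukemic stem cells (LSCs). They were taken from the table by gene symbol and had been selected on their levels in LSCs of imatinib-treated CML mice against LSCs of untreated CML mice. Their difference between these groups is therefore given as a description, and nothing is supported with it. All 10 had counts in every library and passed the filter on low counts.

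S100 proteins are small proteins with a pair of EF-hand loops, and most, though not S100A10, are calcium sensors that expose a binding surface when calcium rises. Annexins bind acidic phospholipids of membranes in a calcium-dependent way and take part in membrane repair, vesicle traffic and the scaffolding of actin at the membrane. Both families meet in fixed pairs: S100A10 joins annexin A2, and the very large scaffold protein AHNAK binds that complex, while S100A11 joins annexin A1. In blood, S100A8 and S100A9 make up calprotectin, a major cytosolic protein of neutrophils and monocytes.

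LSCs from the bone marrow of C57BL/6 mice were profiled by bulk RNA-seq, with 4 libraries from untreated CML mice (CML LSCs) and 4 from CML mice given imatinib (CML-TKI LSCs). All mice carried the BCR-ABL and SCL-tTA transgenes, so that BCR-ABL is switched on in stem and progenitor cells once tetracycline is withdrawn. Imatinib, an inhibitor of the ABL tyrosine kinase, was given by gavage at 400 mg/kg on alternate days for 4 weeks by one label and for 30 days by another. The dose is in question, since the paper names a lower dose for this comparison than the labels do. The ages of the mice behind these libraries, and whether each library is a separate animal, are not given in the sources used here. P-values therefore measure the spread between these libraries. The paper states an age only for recipients of bone marrow transplants. The fourth CML column carries the number 5, which no label gives, and is called CML 5.

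The libraries differed in depth and in the genes of other cell types. Totals ran from 4939644 to 8620101 counts in CML and from 1041552 to 5104268 in CML-TKI, with the lowest total in CML-TKI 3, where 3 counts equal 3.27 CPM (counts scaled to a common library size with edgeR's TMM factors) against 0.406 to 0.924 CPM in the other libraries. CML 1, 2 and 3 were far more alike than other pairs, with a chi-square per degree of freedom of 3.99 to 5.95 over genes against 89.96 to 94.1 for each of them with CML 5. The gene Rn45s, kept in this measure, held 20.2% to 23.1% of the counts in CML 1 to 3 and 38.3% in CML 5. In CML-TKI libraries it held 9.23% to 22.5%. Its part in the chi-square was not tested. Summed over 12 granulocyte marker genes, the level was 139 to 224 CPM in CML and 1415 to 7975 CPM in CML-TKI LSCs, lowest in CML-TKI 1. By edgeR's test, at an adjusted p under 0.05, 10 of the 12 rose. Beside this and the counts of the next lists, 6.29% of all genes tested rose and 3.93% fell. Monocyte and macrophage genes had a sum of 18.6 to 38.6 CPM against 787 to 4302 CPM, and 7 of 8 rose. Stem cell genes had a sum of 1461 to 1704 CPM against 69.3 to 497 CPM, highest of the treated libraries in CML-TKI 1. All 10 had a negative log2 fold change (CML-TKI relative to CML), and 4 fell by edgeR's test. At an unadjusted p under 0.05 8 fell, with DESeq2 5 and with limma-voom 9. Megakaryocyte genes summed to 1362 to 1659 CPM against 60.3 to 764 CPM. All 6 had a negative log2 fold change, and 2 fell by edgeR's test (4 at an unadjusted p under 0.05, and 4 with DESeq2 or limma-voom). Dendritic cell genes summed to 26.5 to 31.7 CPM against 85.1 to 432 CPM, and 1 of 3 tested, Irf8, which monocytes also express, rose. By edgeR's test 0 of 5 erythroid, 0 of 2 T and NK and 0 of 1 B cell genes passed the threshold (3, 1 and 0 at an unadjusted p under 0.05, and 0, 1 and 0 with DESeq2). With limma-voom 1 erythroid gene was called higher and 1 lower, and 1 T and NK gene higher. In CML-TKI 3 the sums of the erythroid, T and NK and B cell genes were 31410, 135 and 257 CPM, the highest of any library. Most of its T and NK sum came from Nkg7 (95.8 CPM) and Klrb1c (27.2 CPM). Of the defining T cell genes, Cd3d had 9.80 CPM, Cd3e 2.18 CPM and Cd3g 0 in CML-TKI 3, against 0 for Cd3e and Cd3g and at most 0.192 CPM for Cd3d in CML libraries. The erythroid sum of CML-TKI 3 was nearly all from the hemoglobin genes Hba-a1 (19500 CPM) and Hbb-bs (11850 CPM). Klf1 (5.44 CPM) and Epor (1.09 CPM) were lower in CML-TKI 3 than in every CML library. The sort also stands in question, since the labels give a CD150-negative, CD48-positive gate and the paper the reverse: Slamf1 (CD150) had 32.2 ± 3.71 CPM in CML and 3.31 ± 2.72 CPM in CML-TKI LSCs, and Cd48 had 5.01 ± 1.24 and 102.6 ± 56.5 CPM (SD, n = 4). In bulk libraries, fewer cells of a type and less RNA per cell cannot be told apart.

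All 10 genes had a positive log2 fold change (CML-TKI relative to CML), with a median of 2.87 beside 0 over the 11937 genes tested. Of the 10, 9 had an adjusted p under 0.05 (edgeR's quasi-likelihood test, Benjamini-Hochberg), and for 9 the lowest CML-TKI library lay above the highest CML library. Over all genes tested, 10.2% passed the threshold in either direction, 6.29% with a higher and 3.93% with a lower level, and 10.3% were higher without overlap between the groups. Since the members were chosen from this very contrast, nothing is read from their count. The genes of largest difference were Anxa3, Ahnak and Anxa2, and the smallest difference was that of S100a10. The panels of levels by library show both the gap between the groups and the libraries that depart from it.

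**Figure D1:**
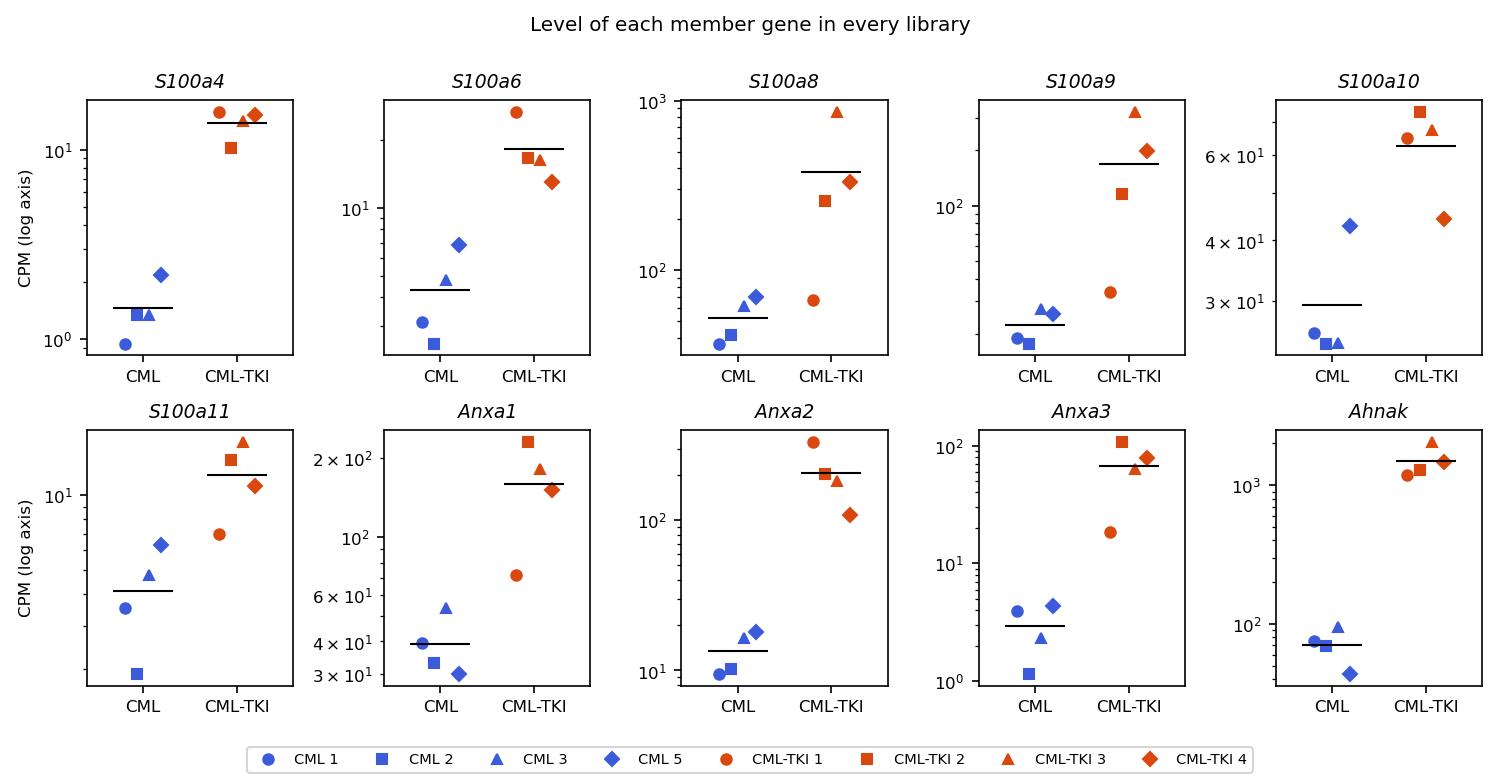
Level of each of the 10 genes in every library, in TMM-scaled CPM on a log axis (each panel has its own range), with CML in blue, CML-TKI in orange, a marker shape for each library and a bar at the group mean. S100a8 is the gene whose groups overlap, with CML-TKI 1 at 66.6 CPM below CML 5 at 69.8 CPM.

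The calprotectin genes S100a8 (chr3:90669071-90670034 of GRCm38) and S100a9 (chr3:90692630-90695721) had the highest mean levels per transcript length of the 10 genes in both groups, though not in every library. In CML-TKI 1 Anxa2 (229 CPM per kb) lay above both (137 and 64.3), and S100a10 (80.9) and Ahnak (64.6) lay above S100a9, as S100a10 (53.3) did in CML 5 (S100a9 at 49.2). S100a8 had 36.9, 41.6, 61.8 and 69.8 CPM in CML 1, 2, 3 and 5, and 66.6, 257, 860.2 and 331 CPM in CML-TKI 1 to 4. CML-TKI 1 thus lay within the CML range, whereas the other treated libraries lay above it. S100a9 had 18.9, 17.6, 27.5 and 25.7 CPM in CML and 33.6, 115, 326 and 199 CPM in CML-TKI LSCs. Again CML-TKI 1 was close to the CML libraries, and CML-TKI 3 was the highest. The log2 fold change was 2.84 (standard error 0.64) for S100a8 and 2.89 (standard error 0.58) for S100a9. Without CML-TKI 3 these values were 2.07 and 2.38, and without CML-TKI 1 they were 3.19 and 3.23. The call of S100a8 was lost when any 1 of the 4 CML libraries was left out, and that of S100a9 without CML 1 or CML 2. CML-TKI 3 is also the library with the highest hemoglobin levels, and it was the highest library for 7 of the 12 granulocyte genes, among them the granule genes Ltf, Ngp and Camp (384, 252 and 145 CPM). For the other 5, Elane, Mpo, Prtn3, Ctsg and Cebpe, another treated library was higher, and the granulocyte sum of CML-TKI 3 (6960 CPM) was below those of CML-TKI 2 and 4 (7715 and 7975 CPM). The part of such cells in its S100a8 and S100a9 level was not tested.

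The 2 calprotectin transcripts kept a nearly fixed proportion. The ratio of S100a8 to S100a9 CPM was 1.95, 2.36, 2.25 and 2.72 in CML 1, 2, 3 and 5, and 1.98, 2.24, 2.64 and 1.66 in CML-TKI 1 to 4. On the log2 scale the mean ratio was 1.204 ± 0.20 in CML and 1.07 ± 0.28 in CML-TKI LSCs (SD, n = 4), while S100a8 itself spanned 36.9 to 860.2 CPM. Of all 45 pairs among the 10 genes, S100a8 and S100a9 had the most alike profiles, with a root mean square difference of 0.22 log2 units over the 8 libraries after each gene was centred on its mean.

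Promoters are shown for the members that held a match to 1 of 3 motifs of myeloid or STAT factors. Each window runs from 250 bases before to 50 bases after the RefSeq gene start (GRCm38.p6), 5′ to 3′ on the strand of the gene. Capitals mark matches, on either strand, to the letters TTNNGNAA (a loose C/EBP motif), TTCNNNGAA (a STAT motif) or GAGGAAG (a PU.1 motif), and no 2 matches overlapped. Windows were found for 8 of the 10 genes, S100a10 and Anxa3 being the others. S100a8 (chr3:90668821-90669120, plus strand), S100a9 (chr3:90695672-90695971, minus strand), S100a4 (chr3:90603520-90603819, plus strand) and Anxa1 (chr19:20390622-20390921, minus strand) held at least 1 match:
S100a8: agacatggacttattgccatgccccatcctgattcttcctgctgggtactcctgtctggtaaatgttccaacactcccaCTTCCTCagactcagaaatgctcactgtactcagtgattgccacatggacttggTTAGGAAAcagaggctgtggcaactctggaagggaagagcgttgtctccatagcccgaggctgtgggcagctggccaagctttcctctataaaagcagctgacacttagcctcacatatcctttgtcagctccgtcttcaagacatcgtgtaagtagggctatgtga
S100a9: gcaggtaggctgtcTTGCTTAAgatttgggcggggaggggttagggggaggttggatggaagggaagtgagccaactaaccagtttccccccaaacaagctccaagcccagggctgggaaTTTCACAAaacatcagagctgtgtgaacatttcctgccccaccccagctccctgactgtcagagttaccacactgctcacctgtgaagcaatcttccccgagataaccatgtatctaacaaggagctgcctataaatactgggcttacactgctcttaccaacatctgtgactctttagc
S100a4: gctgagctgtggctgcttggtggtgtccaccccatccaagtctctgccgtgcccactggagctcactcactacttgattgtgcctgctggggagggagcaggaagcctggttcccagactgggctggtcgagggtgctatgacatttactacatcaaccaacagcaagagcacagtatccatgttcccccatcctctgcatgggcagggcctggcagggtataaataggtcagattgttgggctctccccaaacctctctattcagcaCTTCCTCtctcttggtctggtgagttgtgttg
Anxa1: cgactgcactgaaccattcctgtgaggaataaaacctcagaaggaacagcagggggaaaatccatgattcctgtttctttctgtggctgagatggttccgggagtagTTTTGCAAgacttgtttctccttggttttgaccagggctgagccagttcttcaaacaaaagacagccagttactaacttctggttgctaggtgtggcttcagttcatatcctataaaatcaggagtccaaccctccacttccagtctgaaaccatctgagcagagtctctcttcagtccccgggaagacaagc
The C/EBP letters, named for factors of granulocyte and monocyte development, occurred in 3 of the 8 windows and in 40.7% of all 32851 windows of this length. In S100a8 the match began 117 bases before the start, in S100a9 the 2 matches began 236 and 130 bases before it, and in Anxa1 143 bases before it. The PU.1 letters occurred in 2 of the 8 windows, S100a8 and S100a4, and in 13.6% of all windows. The STAT letters occurred in 0 of the 8 windows and in 8.3% of all windows, which says only that these letters are not in these windows.

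S100a4 and S100a6 lie on either side of S100a5 in the same stretch of chromosome 3 (chr3:90603770-90606045 and chr3:90612894-90614414). S100A4 binds non-muscle myosin heavy chain and is known from motile cells, and S100A6, or calcyclin, binds several annexins. S100a4 had 0.947, 1.34, 1.34 and 2.19 CPM in CML 1, 2, 3 and 5, from 7 to 16 counts, and 15.9, 10.2, 14.2 and 15.3 CPM in CML-TKI 1 to 4. The groups were far apart, and the treated libraries were close to one another. Its log2 fold change was 3.23 (standard error 0.52), and it passed the threshold with each library left out in turn but not with CML 1 to 3 summed (edgeR adjusted p = 0.166). S100a6 had 3.11, 2.49, 4.80 and 6.83 CPM in CML and 26.6, 16.6, 16.3 and 12.9 CPM in CML-TKI 1 to 4, with a log2 fold change of 2.07 and a standard error of 0.48. CML-TKI 1 was the highest library for both genes, unlike for S100a8 and S100a9. The call of S100a6 was lost when CML 1, 2 or 3 was left out.

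Of the annexin A2 complex, Anxa2 and Ahnak showed large differences and S100a10 a small one. Anxa2 (chr9:69453683-69491792, which contains the microRNA gene Mir3109) had 9.47, 10.2, 16.5 and 18.0 CPM in CML 1, 2, 3 and 5, and 332, 204, 183 and 109 CPM in CML-TKI 1 to 4. Every treated library was well above every untreated one, and CML-TKI 1 was the highest. Its log2 fold change was 3.93 (standard error 0.40), and ran from 3.60 without CML-TKI 1 to 4.14 without CML-TKI 4 over the fits that left out a library. Ahnak (chr19:8989284-9076935), with 18339 bases of exons, had 75.5, 68.8, 94.8 and 43.6 CPM in CML and 1185, 1288, 2046 and 1471 CPM in CML-TKI LSCs, from 319 counts or more in each library. The lowest treated library was more than 10 times the highest untreated one. Its log2 fold change was 4.40 (standard error 0.32), a ratio of mean CPM of 21.2.

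S100a10 (chr3:93555117-93564645), the partner of annexin A2, had 25.8, 24.5, 24.6 and 42.7 CPM in CML 1, 2, 3 and 5, and 64.9, 73.6, 67.5 and 44.2 CPM in CML-TKI 1 to 4. The groups nearly met, at CML 5 and CML-TKI 4. Its log2 fold change was 1.08 (standard error 0.28), and the call was lost when CML 1, 2 or 3 or CML-TKI 2 or 3 was left out. It was also lost when totals without Rn45s set the scale, with no filter on low counts and with CML 1 to 3 summed (edgeR adjusted p of 0.0686, 0.0541 and 0.404). The ratio of S100a10 to Anxa2 CPM was 2.73, 2.42, 1.49 and 2.37 in CML 1, 2, 3 and 5, and 0.196, 0.361, 0.369 and 0.406 in CML-TKI 1 to 4. The transcript of the S100 subunit was thus in excess by reads in every CML library, and that of the annexin in every CML-TKI library. Per transcript length the mean level was 36.7 ± 11.1 CPM per kb for S100a10 and 9.36 ± 3.01 for Anxa2 in CML LSCs, against 78.0 ± 15.9 and 143 ± 64.1 CPM per kb in CML-TKI LSCs (SD, n = 4).

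**Figure D2:**
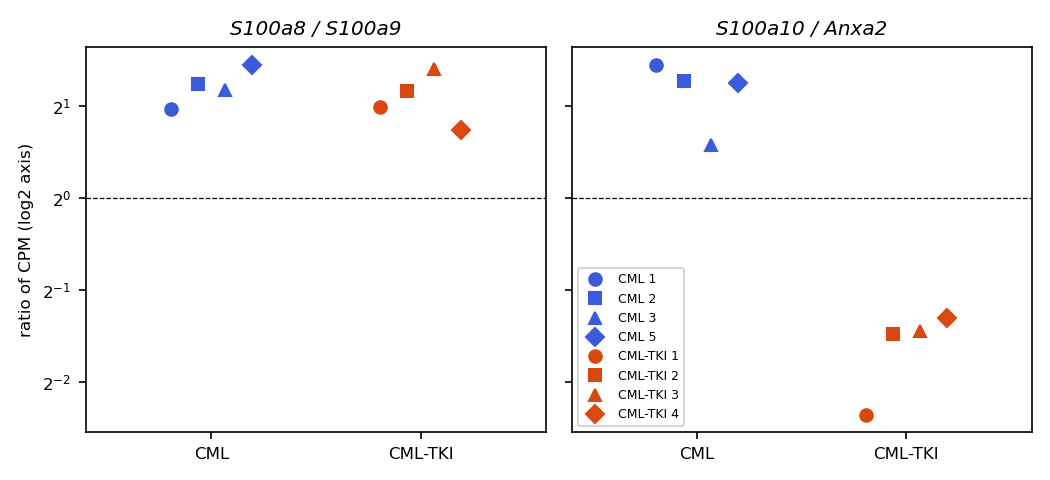
Ratio of CPM of S100a8 to S100a9 (left) and of S100a10 to Anxa2 (right) in every library, on a log2 axis, with a dashed line at a ratio of 1. The first ratio stays between 1.66 and 2.72 in all 8 libraries, and the second is above 1 in the 4 CML libraries and below 1 in the 4 CML-TKI libraries.

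S100a11, whose protein binds annexin A1, was the member that did not pass the threshold in edgeR's test, while DESeq2 (adjusted p = 0.0414) and limma-voom (adjusted p = 0.0258) called it. It lies at chr3:93520496-93526288 and RefSeq annotates a pseudogene, S100a11-ps, at chr12:73961087-73961577. Whether reads were shared between them was not tested. S100a11 had 3.52, 1.92, 4.80 and 6.28 CPM in CML 1, 2, 3 and 5, from 10 to 46 counts, and 6.98, 13.9, 16.3 and 10.9 CPM in CML-TKI 1 to 4. The groups did not overlap, but CML-TKI 1 lay close to CML 5. The log2 fold change was 1.51 with a standard error of 0.54.

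Anxa1 and Anxa3 encode annexins of myeloid cells. Annexin A1 is an anti-inflammatory protein induced by glucocorticoids, and annexin A3 is abundant in neutrophils. Anxa1 (chr19:20373434-20390671) had 39.4, 33.2, 53.8 and 30.05 CPM in CML 1, 2, 3 and 5, and 71.9, 231, 182 and 152 CPM in CML-TKI 1 to 4. This gave a log2 fold change of 2.02 (standard error 0.36). Anxa3 (chr5:96793385-96845968) had 3.92, 1.15, 2.30 and 4.37 CPM in CML, from 6 to 32 counts, and 18.3, 107, 63.2 and 78.1 CPM in CML-TKI LSCs. For both genes every treated library was above every untreated one, and CML-TKI 1 was the lowest of the treated. The log2 fold change of Anxa3 was 4.47 (standard error 0.61), within its error of that of Ahnak. The call of either gene held with each library left out in turn, and was lost with CML 1 to 3 summed (edgeR adjusted p = 0.112 for Anxa1 and 0.0558 for Anxa3).

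Per transcript length, the order of the 10 genes differed between the groups. In CML LSCs S100a8 led with 108 ± 32.5 CPM per kb, followed by S100a9 with 43.0 ± 9.31 and S100a10 with 36.7 ± 11.1, and Anxa3 was the lowest with 1.12 ± 0.56 (SD, n = 4). S100a8 was above S100a9, S100a10 above Anxa1, Anxa1 above Anxa2 and S100a4 above Anxa3 without overlap of their libraries, while S100a9 and S100a10 overlapped, as did the genes from Anxa2 through S100a11, S100a6 and Ahnak to S100a4. In CML-TKI LSCs S100a8 and S100a9 led with 780 ± 699 and 323 ± 239 CPM per kb, followed by Anxa2 with 143 ± 64.1, Anxa1 with 84.0 ± 35.2, Ahnak with 81.7 ± 20.96 and S100a10 with 78.0 ± 15.9. S100a4, Anxa3, S100a11 and S100a6 followed between 22.4 and 27.8 CPM per kb. Only S100a10 and S100a4 were neighbours without overlap in that order. Ahnak moved from the eighth to the fifth place and Anxa2 from the fifth to the third.

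The 10 genes were ordered by how far CML-TKI 1 lay from the other CML-TKI libraries, so that a gradient follows from the ordering itself. CML-TKI 1 also differed from those libraries over all genes, with a chi-square per degree of freedom of 58.3 to 68.9. Among the other treated libraries it was 27.2 to 54.3. How often CML-TKI 1 was the lowest or highest treated library over all genes was not counted. On the log2 CPM scale, CML-TKI 1 differed from the mean of CML-TKI 2, 3 and 4 by -2.65 for S100a8, -2.53 for S100a9, -2.12 for Anxa3, -1.36 for Anxa1, -0.91 for S100a11 and -0.41 for Ahnak. It was the lowest treated library for these 6 genes. The difference was 0.11 for S100a10, 0.28 for S100a4, 0.79 for S100a6 and 1.05 for Anxa2, and for the last 3 it was the highest treated library. CML-TKI 1 also had the lowest granulocyte and monocyte sums of the treated libraries. It held 66 genes at 20 CPM or more that had 3 counts or fewer summed over all other libraries, against 12 such genes in CML-TKI 3 and 0 in each of the others. Among the 66, named after their values were seen, Moxd1 had 727 CPM, Cdh6 483 CPM and Sox10, a transcription factor of neural crest and glial cells, 231 CPM. The part of these transcripts' source in the levels of S100a4, S100a6 and Anxa2 was not tested. Without CML-TKI 1 all 10 genes passed the threshold, and S100a4, S100a6 and Anxa2 had log2 fold changes of 3.15, 1.81 and 3.60.

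**Figure D3:**
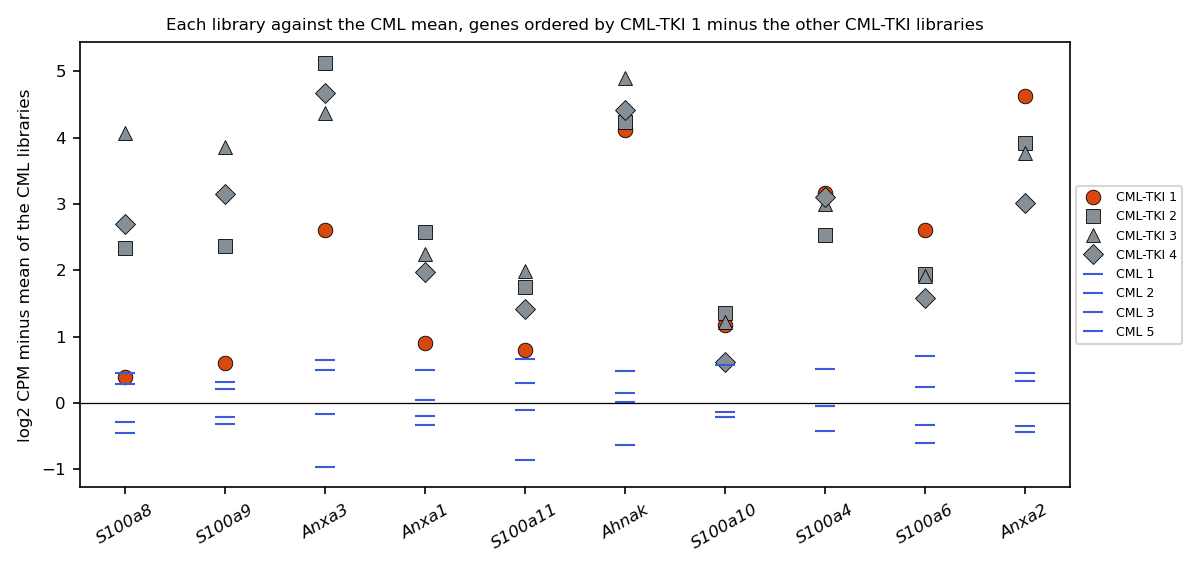
Log2 CPM of each gene in each library minus the mean of the CML libraries, with genes ordered by the difference between CML-TKI 1 and the mean of the other CML-TKI libraries (orange: CML-TKI 1, grey: other CML-TKI, blue dashes: CML). That difference is -2.65 for S100a8 at the left and 1.05 for Anxa2 at the right.

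The other S100 and annexin genes were taken by family name. Of 23 listed genes, 12 were in the table and 10 were tested, with a median log2 fold change of -0.13 and 3 positive values. 1 of the 10 rose, beside 6.29% of all genes, and 0 fell by edgeR's test (1 at an unadjusted p under 0.05, 0 with DESeq2 and 1 with limma-voom). Anxa6, a large annexin with a doubled core that binds membranes of the endocytic route, had 34.1 ± 4.40 CPM in CML and 129 ± 27.2 CPM in CML-TKI LSCs (SD, n = 4), equal to 1.92 on the log2 scale with a standard error of 0.23 (edgeR adjusted p = 0.00118), and was higher in 4 of 4 treated libraries. This call held with each library left out in turn, and was lost with the near-alike CML 1 to 3 summed to 1 library (edgeR adjusted p = 0.0551). Anxa7, Anxa9 and Anxa11 had log2 fold changes of 0.13, -0.04 and -0.02 (adjusted p of 0.736, 0.974 and 0.978), and the sign of each turned under at least 1 other setting. Anxa5, the annexin used as a probe of dying cells, had 77.5 ± 12.6 and 65.9 ± 26.8 CPM (log2 fold change -0.22, adjusted p = 0.689), and Anxa4 had 35.4 ± 5.52 and 18.0 ± 13.6 CPM (log2 fold change -1.02, adjusted p = 0.307). S100pbp, which encodes a protein that binds S100P and belongs to the list by name, had a log2 fold change of -0.36 (adjusted p = 0.661).

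**Figure D4:**
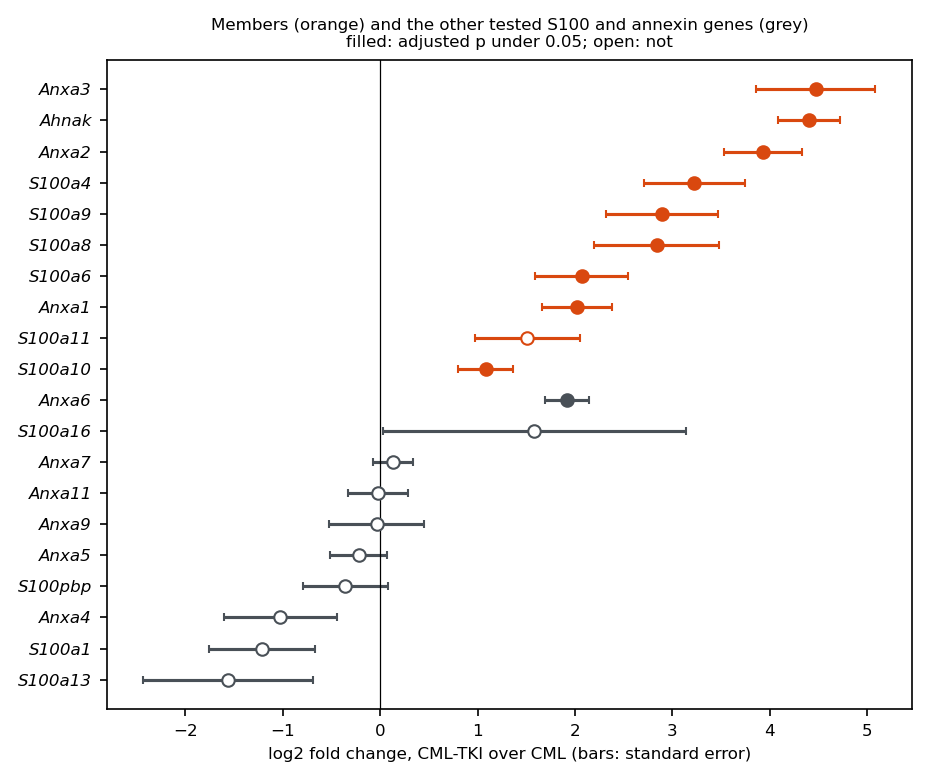
Difference of CML-TKI from CML LSCs on the log2 scale, with its standard error, for the 10 members (orange) and the 10 other S100 and annexin genes tested (grey), filled where the adjusted p was under 0.05. Anxa6 at 1.92 is the filled grey point, and S100a11 at 1.51 the open orange one.

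Along chromosome 3 the members of the S100 cluster had neighbours with other values. S100a1 and S100a13, which overlap each other in the annotation, lie at the start of the cluster, 92.7 kb from S100a4 as counted from the start of S100a1. S100a1 had 16.2 ± 5.88 CPM in CML and 6.75 ± 4.46 CPM in CML-TKI LSCs, lower in 4 of 4 treated libraries (log2 fold change -1.22, standard error 0.54, adjusted p = 0.194). S100a13 had 4.53 ± 2.83 and 1.34 ± 1.37 CPM (log2 fold change -1.56, adjusted p = 0.293). S100a16 had 0.271, 0.192, 1.92 and 6.15 CPM in CML 1, 2, 3 and 5, and 20.9, 0, 4.36 and 0 CPM in CML-TKI 1 to 4. Its log2 fold change of 1.58 (adjusted p = 0.57) turned to -1.41 without CML-TKI 1. S100a5, between S100a4 and S100a6, had at most 4 counts in any library and was not tested. S100b, on chromosome 10, had 544 counts in CML-TKI 1, equal to 103 CPM, 1 count each in CML 3 and CML 5 and 0 in the other libraries, and did not pass the filter. It is among the 66 genes described above that were nearly confined to CML-TKI 1.

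**Figure D5:**
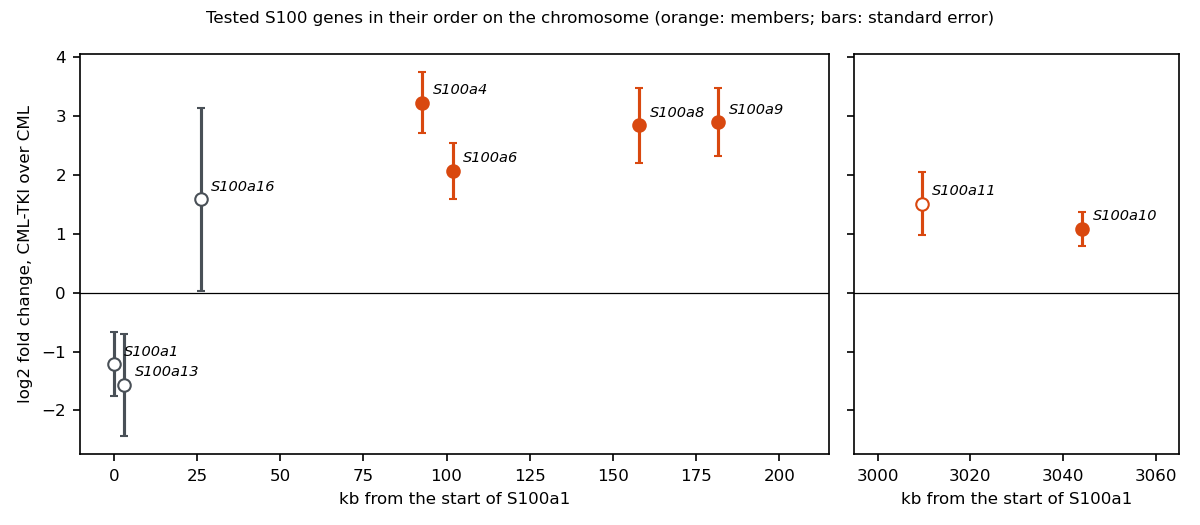
Log2 fold change with its standard error of the tested S100 genes by distance from the start of S100a1, with members in orange, other genes in grey and open points where the adjusted p was not under 0.05. S100a4, S100a6, S100a8 and S100a9 lie together between 92.7 and 181.6 kb with values of 2.07 to 3.23, while S100a1 and S100a13 have -1.22 and -1.56.

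Receptors and partners of these proteins were described from a list set by role. Of 32 listed genes 30 were in the table and 22 were tested, with a median log2 fold change of 0.40 and 15 positive values. 2 of the 22 rose, a share close to the 6.29% of all genes, and 0 fell by edgeR's test (0 at an unadjusted p under 0.05, and 0 with DESeq2 or limma-voom). Emb, which encodes embigin, a membrane protein of the immunoglobulin superfamily related to basigin, had 36.8, 33.4, 42.1 and 33.9 CPM in CML 1, 2, 3 and 5, and 164, 697, 427 and 336 CPM in CML-TKI 1 to 4. The log2 fold change of Emb was 3.47 with a standard error of 0.41 (edgeR adjusted p = 0.0011). Every treated library was above every untreated one, and CML-TKI 1 was the lowest of them. Capn2, a calcium-activated protease of membrane repair, had 21.6 ± 2.38 CPM in CML and 55.5 ± 17.8 CPM in CML-TKI LSCs (SD, n = 4). Its log2 fold change was 1.37 with a standard error of 0.30 (edgeR adjusted p = 0.0178), and it was higher in 4 of 4 treated libraries. The call of Capn2 was lost when any 1 of the 4 CML libraries was left out, with an edgeR adjusted p of up to 0.0692. Of the annexin A1 receptors, Fpr1 and Fpr2 were not tested: in CML-TKI 3 they had 6.53 and 40.3 CPM, and in every other library at most 0.947 and 5.18 CPM. 0 of 3 tested genes of the plasminogen system, which S100A10 with annexin A2 binds at the cell surface, and 0 of 7 tested actin and myosin partners passed the threshold in edgeR's test (2 and 2 at an unadjusted p under 0.05, all higher, and 1 and 2 with DESeq2).

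Other calcium sensors of the EF-hand fold were taken as a comparison. Of 28 listed genes 21 were tested, with a median log2 fold change of 0.16, and 4 rose, beside 6.29% of all genes, and 0 fell, beside 3.93%, by edgeR's test (1 lower at an unadjusted p under 0.05, and 1 lower with DESeq2 or limma-voom). Lcp1 (L-plastin, an actin bundler of leukocytes) and Gca (grancalcin) had log2 fold changes of 1.29 and 1.505 (adjusted p of 0.04 and 0.0428), and each held its call with CML-TKI 1 left out and lost it with any other library left out. Nucb2 had 3 to 5 counts in each CML library and 3 to 73 in the CML-TKI libraries (log2 fold change 3.90, adjusted p = 0.0109), so that its size rests on few counts, and its call was lost without CML 1 or CML 3.

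The genes most like 4 of the members over the 8 libraries were found by the same root mean square difference of centred log2 CPM among 9287 genes whose mean log2 CPM was 3 or more, as a description in which the points share libraries and depth. S100a8 was most like Ngp (0.35), a neutrophil granule gene, S1pr3 (0.36) and 6430548M08Rik (0.39). S100a6 was most like Anxa6 (0.33), Sat1 (0.35) and Nedd9 (0.37). Anxa1 was most like B4galt6 (0.23), Nfam1 (0.24) and Nhsl2 (0.24), and Anxa2 like Gpc1 (0.49), Fndc3b (0.53) and Nrp1 (0.55).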

How the data were processed

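Bulk RNA-seq of 4 CML and 4 CML-TKI LSC libraries was used. Per the labels and the paper, RNA was isolated with the RNeasy Plus mini kit and Nextera XT libraries were made. The authors aligned reads to mm10 with STAR 2.6.1d and made gene values in Partek Flow from RefSeq transcripts (Partek 8.0 in the submitters' processing notes). The deposited values are estimated counts per gene, without normalization, and 8.32% to 22.1% of a library's values were not whole. Tagmentation covers the ends of short cDNA poorly, so that S100 transcripts of about 500 bases may be under-counted against Ahnak. Strand use and the treatment of reads shared by copies are not given in the sources used here.

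The estimated counts were rounded. edgeR 4.0.16 (R 4.3.3) was run with TMM, filterByExpr (minimum count 10, minimum total 15), robust dispersion estimates and its quasi-likelihood test. P-values of the 11937 genes kept were adjusted together (Benjamini-Hochberg), with calls under 0.05. Standard errors were obtained as the absolute log2 fold change over sqrt(F). Log2 CPM used a prior count of 2. Levels per length used exon lengths of GENCODE M21. Coordinates and promoters came from RefSeq (GRCm38.p6, the assembly of mm10). DESeq2 1.42.0 and limma 3.58.1 were alternatives. The scripts were tested on simulated data.

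The members, lists and rules were chosen with earlier results of these data known. Named beyond the members were the other family genes with 10 or more counts in a library, partner and EF-hand genes past the threshold, the 3 genes most like each of 4 members, marker lists by counts and the surface genes of the sort. Floors of 3 counts cover counting error only, since reads without molecular identifiers are not independent molecules. Protein sequences were not used here, and 1 of the 4 EF-hand genes past the threshold is not reported here by name.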

Additional observations from a re-analysis of the deposited data

Results flagged for a closer look

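In 3 of 42 measures, 1 library stood well apart from its group by Dixon's criterion at 95% on log2 CPM, among the levels of the members and their family. For independent libraries chance alone gives about 1 in 20 groups, or 2.1 here. CML 1 to 3 were near-alike, so that this number may not hold for CML 5. S100a10 in CML 5 had 5.43 log2 CPM against 4.64 to 4.71 in CML 1 to 3, a gap of 0.908 of the range. S100a1 in CML 5 had 4.67 against 3.73 to 3.87, a gap of 0.852 of the range. S100b in CML-TKI 1 had 6.69 against -1.27 in the other CML-TKI libraries, which had no count. Since those libraries are tied, the gap is 1 of the range whatever the level in CML-TKI 1.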

How the results depend on the processing

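Of the 10 members, all kept a positive log2 fold change under every one of 17 alternatives, and Anxa2 and Ahnak kept their call in all 17. The number of members called was 5 without CML 1 or without CML 2, 6 without CML 3 and between 5 and 10 over the fits that left out a library. Their median log2 fold change ran from 2.25 without CML-TKI 3 to 3.17 without CML-TKI 1. With CML 1 to 3 summed to 1 library, 2 members, 0 other family genes, 1 partner gene, 0 EF-hand genes and 122 of all genes were called. The number of all genes called was 1220 as reported, 2157 with DESeq2, 2544 with limma-voom and quality weights, and 505 to 2504 with a library left out. Partner genes called were 5 with DESeq2, 6 with limma-voom and 1 to 7 with a library left out. EF-hand genes called were 2 with total counts, 1 with total counts without Rn45s, 1 without a filter, 7 with DESeq2, 8 with limma-voom and 0 to 8 with a library left out. Other family genes called were 2 with limma-voom, the added one being Anxa4. Signs turned for Anxa11 (0.025 with total counts, 0.069 with limma-voom, -0.188 to 0.2 with a library left out), Anxa7 (-0.017 with total counts without Rn45s), Anxa9 (0.022 with CML 1 to 3 summed, -0.57 to 0.203 with a library left out) and S100a16 (-1.41 to 3.002 with a library left out). Total counts without Rn45s moved the median of all genes to -0.14. The causes were not tested.

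With the replicate number as a replicate block over numbers 1 to 3, which uses 6 libraries, 193 genes, 2 members, 1 partner gene and 0 EF-hand genes were called, and Anxa11 turned to 0.008. The numbers are shared labels only: deviations of same-numbered libraries correlated at -0.042, 0.097 and 0.093, and not every library correlated best with its own number. The 3 genes most like each of S100a8, S100a6, Anxa1 and Anxa2 were the same with a prior count of 0.5, with Sat1 and Nedd9 changing places for S100a6. CML-TKI 3 had the lowest depth, and S100a4, S100a6 and S100a11 rest on 13 to 15 counts there. The lowest counts of S100a4, S100a6, S100a11 and Anxa3 were in CML libraries, at 7, 13, 10 and 6.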
